A study of Homo sapiens with 8 samples.

Results

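The transcripts of the proteasome subunits and of the factors that assemble them were measured in human leukaemia cells with reduced DDX6. The genes were chosen by name: every gene called PSMA to PSMG followed by a number, together with the ubiquitin receptor gene ADRM1 and the assembly factor gene POMP, if it held at least 100 counts summed over the 8 libraries. Of 61544 entries in the count tables, 50 carried such a name and 48 reached the minimum. PSMA8 and PSMB11, with 1 count each, stood outside it, and PSMA2 stood just inside it with 101 counts. All 48 also passed the filter on low counts applied before testing.

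The libraries came from 2 established lines. HEL derives from an erythroleukaemia and keeps traits of red cell and megakaryocyte precursors. MOLM-13 derives from a monocytic acute myeloid leukaemia with a KMT2A fusion gene. Per the labels both are of wild-type genotype. Every culture was grown in RPMI medium with serum and beta-mercaptoethanol, received lentivirus expressing an shRNA and was selected with puromycin, so the control libraries share the virus and the selection with the DDX6 shRNA libraries. DDX6 is an RNA helicase needed for P-bodies, cytoplasmic granules that store mRNA, and the comparison in each line asks how transcript levels stood when it was reduced. Each of the 4 groups (HEL control, HEL DDX6 shRNA, MOLM-13 control and MOLM-13 DDX6 shRNA) held 2 libraries. The sample titles do not name the hairpin, and only the HEL columns carry a hairpin number, so whether both lines received the same hairpin cannot be told. The labels do not say that replicates were separate cultures, so the spread between libraries, against which differences were tested, may be technical. In the gene tests this spread was pooled over the 4 groups and moderated strongly by a trend over all genes.

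The proteasome degrades proteins tagged with ubiquitin. Its 20S core is a barrel with outer rings of alpha subunits (PSMA genes) and inner rings of beta subunits (PSMB genes), and the 19S cap, made of an ATPase base (PSMC genes and some PSMD genes) and a lid (other PSMD genes), recognises, unfolds and feeds in the substrate. The catalytic subunits PSMB5, PSMB6 and PSMB7 can be replaced by PSMB8, PSMB9 and PSMB10, which interferon induces and which favour peptides for MHC class I; the resulting particle is the immunoproteasome and is common in blood cells. Dedicated chaperones build the particle, and separate activator rings (PSME genes) can take the place of the 19S cap.

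Total counts were 10719829 to 12093544 per HEL library and 7888318 to 8174432 per MOLM-13 library, so that 3 counts equalled 0.248 to 0.280 and 0.367 to 0.380 CPM (counts scaled to library size; all other CPM values also carry the TMM factor). DDX6 itself fell in both lines: it stood at 177 and 179.8 CPM in HEL control and 96.8 and 94.8 CPM in DDX6 shRNA libraries, which left 53.8% of the HEL control mean, and at 126 and 122 CPM in MOLM-13 control and 67.9 and 74.2 CPM in DDX6 shRNA libraries, which left 57.3%. Its log2 fold change was -0.90 ± 0.07 in HEL and -0.80 ± 0.08 in MOLM-13 (± SE throughout, 2 libraries per group). The erythroid and megakaryocytic markers, 8 genes summed, lay in HEL at 1851 to 1879.9 CPM with control and 1974 to 2026 CPM with DDX6 shRNA, against 13.6 to 19 CPM in MOLM-13 libraries, where HBG1 had 0 counts. The 7 monocytic markers summed in HEL to 127 to 128 CPM with control and 150.1 to 153 CPM with DDX6 shRNA, with MPO at 0 counts, LYZ higher and ITGAM lower by the test used below. In MOLM-13 they summed to 4565 to 4581 and 4461 to 4936 CPM, and the members moved in opposite directions. There CSF1R rose from 83.3 and 84.7 to 203 and 210.5 CPM and LYZ also rose, whereas CD14 fell from 9.27 and 11.7 to 1.45 and 1.60 CPM, ITGAM from 124 and 123 to 48.1 and 46 CPM and MPO from 1391 and 1519 to 938 and 993 CPM. The 5 lymphoid markers summed in MOLM-13 to 8.32 to 8.89 CPM with control shRNA, against 45.1 to 51.3 CPM with DDX6 shRNA, nearly all of it CD3D, while CD3E had 0 or 1 count in each MOLM-13 library. In HEL the same sum was 5.44 to 5.94 and 12.4 to 14.3 CPM. In HEL the 5 genes listed as stromal and epithelial summed to 254 to 258 CPM (control) and 312 to 320.5 CPM (DDX6 shRNA). In MOLM-13 they summed to 270 to 275 CPM and 520.5 to 564 CPM. These sums were mostly PECAM1, so they follow that gene and not stromal or epithelial genes as a set. PECAM1 alone of the list was called higher in MOLM-13, from 264 and 261 to 513 and 552 CPM. In HEL COL1A1 and KRT18 were called higher with it. The part of these marker shifts in the results below was not tested.

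In HEL, reduced DDX6 went with higher levels of most proteasome transcripts. With edgeR's quasi-likelihood test and a Benjamini-Hochberg adjusted p under 0.05 over the 16499 genes tested, 36 of the 48 rose, where 20.7% of all genes did, and PSMB9 alone fell, where 14.1% of all genes did; 11 did not pass. The proteasome genes together took 0.701% and 0.683% of the counts with control shRNA, against 0.848% and 0.838% with DDX6 shRNA, so both DDX6 libraries stood above both controls. The median log2 fold change was 0.32 (SD over the members 0.22), from -0.33 (PSMB9) to 0.70 (PSMB10), and the median of all genes was 0.03. In 39 of the 48 both DDX6 libraries lay above both controls (37.5% of all genes) and in 3 they lay below (29.9%). The shares of all genes here and below were not matched to the members for expression level, on which passing the test also depends. In such bulk libraries a change in the share of a cell type and a change in RNA per cell cannot be told apart.

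Of the 36 rises, 26 were called in all 15 alternatives run for that comparison, and so was the fall of PSMB9. Without HEL control replicate 2 there were 27 rises, and PSMA3, PSMA6, PSMB2, PSMB4, PSMD7, PSMD13, PSMD14, PSME2 and PSMG1 no longer passed (edgeR adjusted p 0.0504 to 0.30). Without HEL DDX6 replicate 1, PSMA6, PSMB2, PSMB4, PSMC3, PSMD14, PSME2 and PSMG1 did not pass (0.0632 to 0.374), and without HEL DDX6 replicate 2, PSMD7 and PSMG1 did not (0.0574 to 0.0856). PSMG1 also did not pass without HEL control replicate 1 (0.109) or without MOLM-13 DDX6 replicate 1 or 2 (0.112 and 0.113). Without either MOLM-13 control replicate, PSMG2 joined PSMB9 as lower in HEL (log2 fold change -0.20 in each case), which made 2.

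In MOLM-13 the same transcripts showed no common direction. Of the 48, 7 rose (18.1% of all genes) and 6 fell (14.3%), 32.4% of all genes being called either way, and 35 did not pass. The proteasome share of all counts was 0.633% and 0.663% with control shRNA, against 0.639% and 0.617% with DDX6 shRNA, so the groups overlapped. The median log2 fold change was -0.03, against 0 for all genes. For the members it was -0.05 without MOLM-13 control replicate 1 and 0.06 without MOLM-13 control replicate 2. The DDX6 libraries lay above both controls for 14 members (31% of all genes) and below both for another 14 (29.2%). The shares called and the shares without overlap were thus near those of all genes.

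Only PSMB10, PSMD2 and PSME4 among the MOLM-13 rises and POMP among the MOLM-13 falls were called in all 15 alternatives. Leaving out MOLM-13 DDX6 replicate 1 left 4 higher and 3 lower, and leaving out MOLM-13 DDX6 replicate 2 left 4 higher and 1 lower. The calls lost were PSMA1, PSMA3, PSMA7, PSMD1, PSMD3 and PSMG1 in the first case (edgeR adjusted p 0.0529 to 0.208) and PSMA1, PSMA3, PSMA7, PSMC1, PSMD3, PSMD13, PSMG1 and PSMG3 in the second (0.0702 to 0.545). Leaving out HEL control replicate 1 or 2 each left 2 lower, with PSMA1, PSMA3, PSMA7, PSMD3, PSMG1 and PSMG3 at 0.0546 to 0.0755 and 0.0549 to 0.0753; HEL libraries enter this count through the joint fit. Without HEL DDX6 replicate 1 or 2, PSMA1, PSMA3, PSMA7 and PSMD3 did not pass (0.0541 to 0.0661 and 0.0534 to 0.0658). Without MOLM-13 control replicate 1, PSMA7, PSMD3 and PSMG1 did not pass (0.108 to 0.161), whereas ADRM1, PSMB7 and PSMB8 became lower and PSMD6 and PSMD14 higher. Without MOLM-13 control replicate 2, PSMA1, PSMC1, PSMD13 and PSMG3 did not pass (0.0517 to 0.416), whereas PSMD12 became lower and PSMF1 higher. Fitted on the MOLM-13 libraries alone, 3 rose and 1 fell.

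Set side by side, PSMA7, PSMB10, PSMC1, PSMD1, PSMD2, PSMD3 and PSME4 rose in both lines (7 members, 14.6%, against 8.15% of all genes). Of 15 alternatives, the MOLM-13 rise was lost in 11 for PSMA7, 10 for PSMD3, 5 for PSMC1 and 2 for PSMD1. PSMA3, PSMD13 and PSMG1 rose in HEL and fell in MOLM-13 (6.25% of the members, against 0.818% of all genes). Each of these MOLM-13 falls was lost with DESeq2 and with the line fitted alone. The HEL rise of PSMG1 was lost in 10 of 15 alternatives. POMP, PSMA1 and PSMG3 fell in MOLM-13 and were not called in HEL (6.25%, against 8.04%). The 26 members that rose in HEL and were not called in MOLM-13 made 54.2%, against 11.7% of all genes. PSMB9, which fell in HEL and was not called in MOLM-13, made 2.08%, against 7.80%. The other 8 (PSMA2, PSMC6, PSMD9, PSMD10, PSME1, PSMF1, PSMG2 and PSMG4) were called in neither line (16.7%, against 48.1%).

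**Figure D1:**
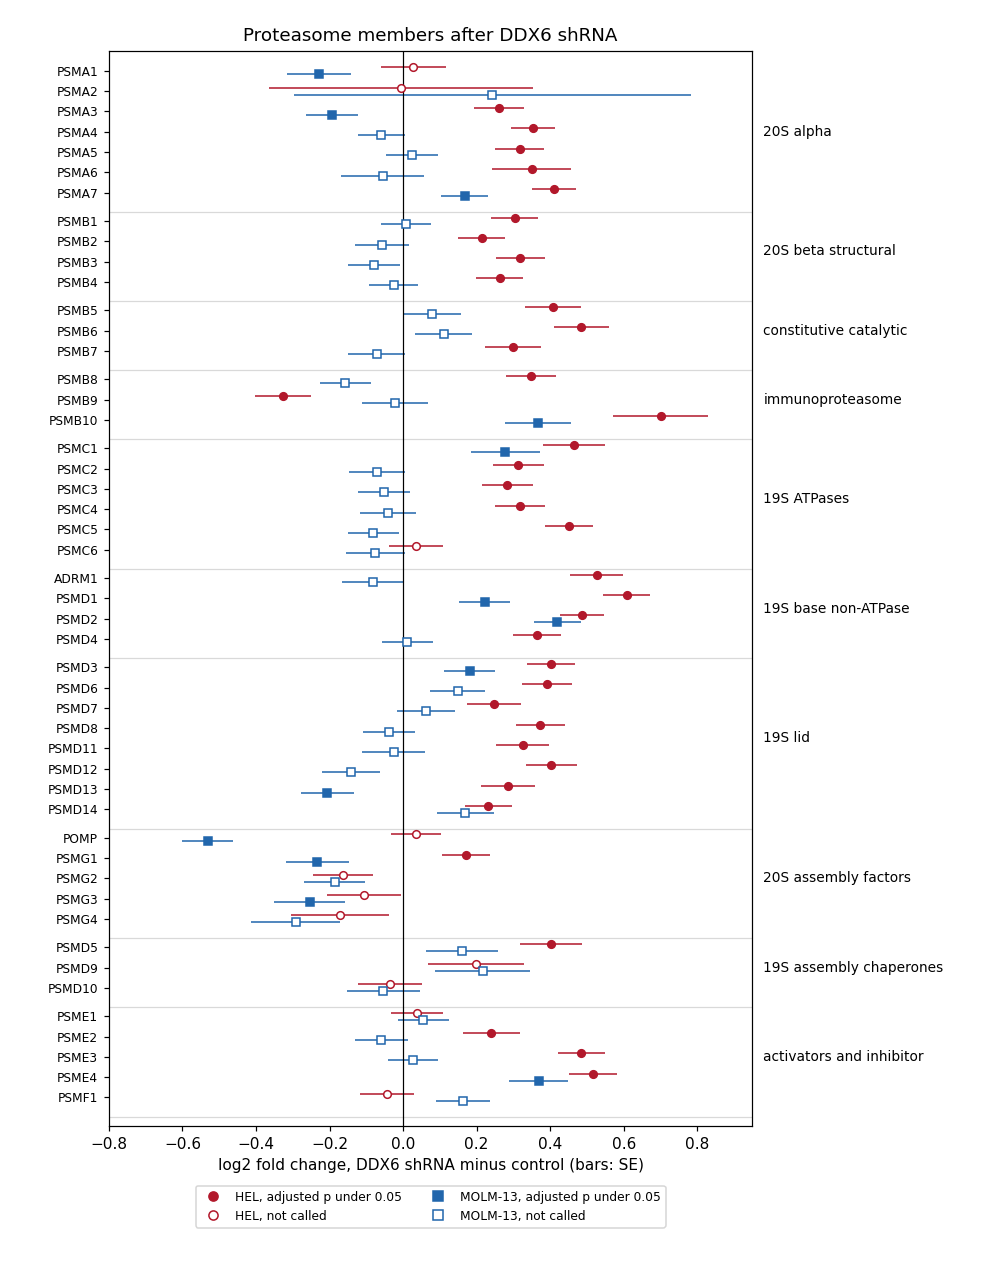
Log2 fold change of each of the 48 members, DDX6 shRNA minus control, with its SE from edgeR, grouped by role; circles and squares mark the lines, and filled symbols passed an adjusted p of 0.05. Most HEL points lie to the right of 0, with a median of 0.32, while the MOLM-13 points lie on both sides, with a median of -0.03.

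The catalytic subunits are the ones for which the constitutive and the interferon-inducible particle differ. The promoters of the inducible genes are known for interferon response elements, so the promoter windows (250 bases before to 50 after each gene start, RefSeq, GRCh38.p14) of the 42 members with a window were searched on both strands for 2 GAAA blocks separated by any 2 bases. It was found in 7 members, 1 window each, which is 13.5% of the 52 member windows and 3.57% of all 35116 windows. These 7 sites are shown to let the letters be compared between genes that moved differently; each is 30 bases on the gene's strand, 5′ to 3′, with the match in capitals, read as 2 TTTC blocks where it lies on the other strand.
PSMB8, 4 bases before the start, chr6:32844032-32844061, minus strand: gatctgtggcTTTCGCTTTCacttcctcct
PSMB10, 21 bases before the start, chr16:67936852-67936881, minus strand: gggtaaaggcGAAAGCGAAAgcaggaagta
PSME1, 6 bases after the start, chr14:24136189-24136218, plus strand: gccctaccgcTTTCGCTTTCccttcgcggt
PSME2, 28 bases before the start, chr14:24146619-24146648, minus strand: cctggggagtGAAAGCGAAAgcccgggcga
PSMG4, 33 bases before the start, chr6:3258904-3258933, plus strand: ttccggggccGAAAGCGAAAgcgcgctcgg
PSMB4, 68 bases before the start, chr1:151399495-151399524, plus strand: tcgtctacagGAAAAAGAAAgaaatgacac
PSMA4, 240 bases before the start, chr15:78540155-78540184, plus strand: atagtgaagaGAAAATGAAAggagagcgcc
The same 10 letters, GAAAGCGAAA on one strand or the other, stood in PSMB8, PSMB10, PSME1, PSME2 and PSMG4. PSMB9 had no match in its window. The members holding a match did not share a response: PSMB10 rose in both lines, PSMB8, PSME2, PSMB4 and PSMA4 rose in HEL alone by the test, and PSME1 and PSMG4 passed in neither line. A match of letters is a description and does not show binding.

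The 3 constitutive catalytic subunits rose in HEL. PSMB5, which carries the chymotrypsin-like activity, stood at 88.4 and 80.5 CPM in HEL control and 114 and 110.4 CPM in DDX6 shRNA libraries, a log2 fold change of 0.41 ± 0.08. PSMB6, with the caspase-like activity, stood at 68.7 and 71.2 CPM in HEL control and 101 and 94.5 CPM in DDX6 shRNA libraries (0.49 ± 0.08). PSMB7, with the trypsin-like activity, stood at 143 and 139.7 CPM in HEL control and 179 and 169 CPM in DDX6 shRNA libraries (0.30 ± 0.07). For all 3 both HEL DDX6 libraries were above both controls, and the edgeR adjusted p was 3.04e-05 for PSMB5, 1.55e-06 for PSMB6 and 0.0014 for PSMB7. In MOLM-13 none of the 3 passed. PSMB5 had 116 and 129.7 CPM in MOLM-13 control and 136 and 124 CPM in DDX6 shRNA libraries (0.08 ± 0.08), and its groups overlapped. PSMB6 had 106 and 117 CPM in MOLM-13 control and 118 and 123 CPM in DDX6 shRNA libraries (0.11 ± 0.08), with the DDX6 libraries just above the controls. PSMB7 had 166 and 208 CPM in MOLM-13 control and 178 and 178 CPM in DDX6 shRNA libraries (-0.07 ± 0.08), with both DDX6 libraries between the controls.

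The 3 inducible subunits did not move together. PSMB8 (chr6:32840717-32844703 in GRCh38) and PSMB9 (chr6:32844136-32859585) lie in the MHC region, and PSMB10 lies at chr16:67934502-67937087. The annotated spans of PSMB8 and PSMB9 overlap at their ends, and that of PSMB9 encloses TAP1 (chr6:32845209-32853978). PSMB8, the counterpart of PSMB5, rose in HEL from 151 and 139 to 188 and 181 CPM, a log2 fold change of 0.35 ± 0.07 (edgeR adjusted p = 6.37e-05). PSMB9, the counterpart of PSMB6, fell in HEL from 113 and 104 to 89.1 and 84 CPM, a log2 fold change of -0.33 ± 0.08 (edgeR adjusted p = 0.000595). It was the only member that fell in HEL, and both of its DDX6 libraries were below both controls. PSMB10, the counterpart of PSMB7, rose from 12.5 and 10.5 to 18 and 19.4 CPM, a log2 fold change of 0.70 ± 0.13 (edgeR adjusted p = 2.46e-05), with no overlap. In MOLM-13, PSMB8 stood at 227 and 239 CPM in MOLM-13 control and 215 and 203 CPM in DDX6 shRNA libraries; both DDX6 libraries were lower, but the difference did not pass (-0.16 ± 0.07, edgeR adjusted p = 0.0764). PSMB9 stood at 60.8 and 69.3 CPM in MOLM-13 control and 66.2 and 62 CPM in DDX6 shRNA libraries, overlapping and at -0.02 ± 0.09. PSMB10 rose there too, from 60.3 and 67.9 to 85.8 and 79.5 CPM (0.37 ± 0.09, edgeR adjusted p = 0.00118). The strand setting of the counting is not given. Of the merged exon length of PSMB8, 20.6% overlaps the antisense gene PSMB8-AS1 and 4.6% overlaps PSMB9, and 34.8% of that of PSMB10 overlaps a same-strand gene of Ensembl identifier ENSG00000261884; the effect of shared reads on these values was not tested.

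**Figure D2:**
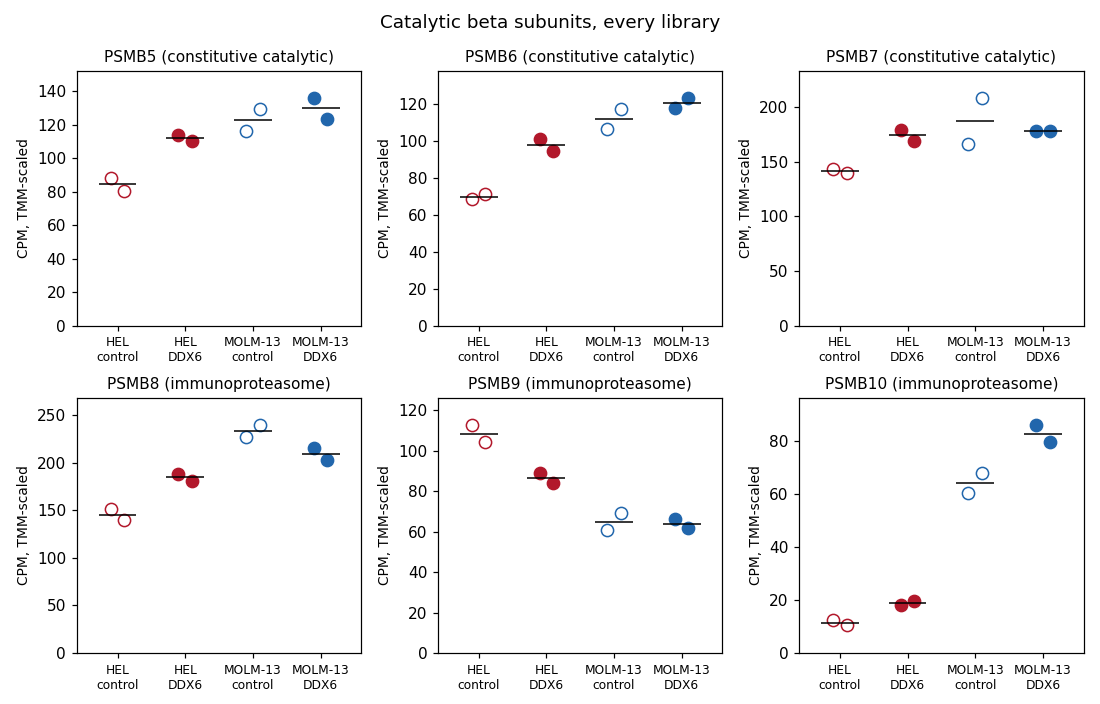
TMM-scaled CPM of the 6 catalytic beta subunit genes in each of the 8 libraries (circles, open for control and filled for DDX6 shRNA; bars, group means of 2 libraries). PSMB9 falls in HEL, from 113 and 104 to 89.1 and 84.0 CPM, while the other 5 stand higher in both HEL DDX6 libraries.

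Taking length into account (CPM per kb of the principal transcript), the 3 inducible subunits made up 49.4% and 48% of the summed level of the 6 catalytic subunits in HEL control and 43.2% and 43.6% in HEL DDX6 shRNA libraries. Both DDX6 libraries lay below both controls. The log2 ratio of inducible to constitutive level went from -0.07 ± 0.06 to -0.38 ± 0.01 (SD, n = 2), a difference of -0.31; an exact two-sided permutation test gave p = 0.333, the smallest that 2 against 2 libraries allow. By pair, the log2 ratio of PSMB9 to PSMB6 went from 0.84 and 0.68 to -0.06 and -0.05, that of PSMB8 to PSMB5 from 0.97 and 0.99 to 0.93 and 0.92, and that of PSMB10 to PSMB7 from -3.83 and -4.05 to -3.62 and -3.43. The pair ratios therefore moved in different directions, with the PSMB9 pair moving most, by -0.81. The mean of the 3 pair ratios, in which each pair has the same weight, moved by -0.15. In MOLM-13 the inducible share was 46.2% and 44.3% with control shRNA, against 44.9% and 43.5% with DDX6 shRNA, overlapping, and the summed log2 ratio differed by -0.06 (exact two-sided permutation p = 0.667). There the PSMB8 to PSMB5 ratio was lower by 0.24 on the log2 scale, at 0.86 and 0.92 against 1.17 and 1.09, and the PSMB10 to PSMB7 ratio higher by 0.43. Without MOLM-13 libraries in turn the summed MOLM-13 difference ranged from -0.11 to -0.003.

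Of the 7 alpha subunits, which form the gated outer rings, 5 rose in HEL, 2 did not pass and none fell. PSMA7, the most abundant member per length in HEL control, rose in both lines, from 444 and 429 to 589.9 and 569 CPM in HEL (0.41 ± 0.06), and MOLM-13 went from 246 and 266 to 289 and 286 CPM (0.17 ± 0.06). PSMA4 stood at 306 and 302 CPM in HEL control and 397 and 379 CPM in DDX6 shRNA libraries (0.35 ± 0.06) and at 292 and 303 CPM in MOLM-13 control and 289 and 282 CPM in DDX6 shRNA libraries (-0.06 ± 0.06). The HEL groups were apart and the MOLM-13 DDX6 libraries lay just below the controls without passing. PSMA3 stood at 122 and 119 CPM in HEL control and 145 and 144 CPM in DDX6 shRNA libraries (0.26 ± 0.07) and at 161 and 158 CPM in MOLM-13 control and 138 and 141 CPM in DDX6 shRNA libraries (-0.19 ± 0.07), so that it rose in HEL and fell in MOLM-13. The call of its fall in MOLM-13 was lost in 11 of 15 alternatives. PSMA5 stood at 176 and 174 CPM in HEL control and 225 and 210.3 CPM in DDX6 shRNA libraries (0.32 ± 0.07) and at 183 and 199 CPM in MOLM-13 control and 193 and 196 CPM in DDX6 shRNA libraries (0.02 ± 0.07), with overlap in MOLM-13. PSMA1 did not pass in HEL, with overlapping libraries at 46.8 and 47.5 CPM in HEL control and 49.2 and 46.9 CPM in DDX6 shRNA libraries (0.03 ± 0.09), and fell in MOLM-13, from 73.4 and 84.7 to 71.2 and 63.8 CPM (-0.23 ± 0.09, edgeR adjusted p = 0.0411). PSMA6 rose in HEL (0.35 ± 0.11) and was at -0.06 ± 0.11 in MOLM-13. PSMA2 had 0.882 to 1.81 CPM in every library and could show no difference of this size at such counts (-0.01 ± 0.36 and 0.24 ± 0.54). Its merged exon length overlaps the same-strand gene AC010132.3 over 14.6% and a pseudogene on the other strand over 19.5%. Same-strand genes also overlap PSMA1 over 24.7% and PSMA6 over 14.1%. The effect of read assignment on these counts was not tested.

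All 4 non-catalytic beta subunits rose in HEL and none passed in MOLM-13. PSMB1 stood at 220.4 and 209 CPM in HEL control and 271 and 258 CPM in DDX6 shRNA libraries (0.30 ± 0.06) and at 234 and 249.7 CPM in MOLM-13 control and 244 and 242 CPM in DDX6 shRNA libraries (0.01 ± 0.07). PSMB3 stood at 169 and 158 CPM in HEL control and 207 and 200.5 CPM in DDX6 shRNA libraries (0.32 ± 0.07) and at 192 and 212 CPM in MOLM-13 control and 196 and 187 CPM in DDX6 shRNA libraries (-0.08 ± 0.07). PSMB4 stood at 232 and 225 CPM in HEL control and 284 and 265 CPM in DDX6 shRNA libraries (0.26 ± 0.06) and at 267 and 286 CPM in MOLM-13 control and 274 and 269 CPM in DDX6 shRNA libraries (-0.03 ± 0.07). In all of these the HEL groups were apart and the MOLM-13 groups overlapped. PSMB2 rose by 0.21 in HEL and was at -0.06 in MOLM-13.

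The 6 PSMC genes encode the ATPase ring that unfolds substrates, and 5 rose in HEL while 1 rose and none fell in MOLM-13. PSMC1 rose in both, from 43.3 and 39.6 to 58.8 and 55.6 CPM in HEL (0.46 ± 0.08), and MOLM-13 went from 47.1 and 45.1 to 55.4 and 56.5 CPM (0.28 ± 0.09). Its exons overlap those of NRDE2 on the other strand over 75.8% of their merged length, and the part of NRDE2 reads in its counts was not tested; the pseudogene PSMC1P1 held 19 to 39 counts per library. PSMC5 stood at 201 and 185 CPM in HEL control and 270.2 and 257 CPM in DDX6 shRNA libraries (0.45 ± 0.07) and at 210.2 and 223 CPM in MOLM-13 control and 210.4 and 199.7 CPM in DDX6 shRNA libraries (-0.08 ± 0.07), with 19.5% of its exon length shared with FTSJ3 on the other strand. PSMC2 stood at 112 and 106 CPM in HEL control and 139 and 132 CPM in DDX6 shRNA libraries (0.31 ± 0.07) and at 122 and 117 CPM in MOLM-13 control and 111 and 115 CPM in DDX6 shRNA libraries (-0.07 ± 0.08). PSMC3 stood at 165 and 164 CPM in HEL control and 210.3 and 191 CPM in DDX6 shRNA libraries (0.28 ± 0.07) and at 209 and 239 CPM in MOLM-13 control and 216 and 216 CPM in DDX6 shRNA libraries (-0.05 ± 0.07). Each of these was higher in both HEL DDX6 libraries. In MOLM-13 the PSMC3 and PSMC5 groups overlapped, and both PSMC2 DDX6 libraries lay below the controls without passing. PSMC4 stood at 134 and 133 CPM in HEL control and 170.1 and 162 CPM in DDX6 shRNA libraries (0.32 ± 0.07) and at 102 and 105 CPM in MOLM-13 control and 99.8 and 102 CPM in DDX6 shRNA libraries (-0.04 ± 0.08). PSMC6 did not pass in either line (0.04 ± 0.07 and -0.08 ± 0.08).

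The 4 non-ATPase subunits of the base, the scaffolds PSMD1 and PSMD2 and the ubiquitin receptors PSMD4 and ADRM1, held the largest median rise of the role groups in HEL, 0.51. PSMD1 (chr2:231056864-231172827) rose from 201 and 196 to 309.7 and 296 CPM in HEL (0.61 ± 0.06, edgeR adjusted p = 1.63e-10), and MOLM-13 went from 144 and 147 to 172 and 168 CPM (0.22 ± 0.07, edgeR adjusted p = 0.012). PSMD2, which docks ubiquitin shuttle factors, rose from 326 and 329 to 469.7 and 448 CPM (0.49 ± 0.06, edgeR adjusted p = 1.1e-08) and from 239.8 and 249 to 325 and 329 CPM (0.42 ± 0.06, edgeR adjusted p = 8.46e-07). Both scaffolds thus stood higher in every DDX6 library of both lines. The ubiquitin receptors rose in HEL and did not pass in MOLM-13. ADRM1 stood at 132 and 128 CPM in HEL control and 189 and 185 CPM in DDX6 shRNA libraries (0.53 ± 0.07) and at 83.5 and 99.8 CPM in MOLM-13 control and 89.8 and 83.4 CPM in DDX6 shRNA libraries (-0.08 ± 0.08), and PSMD4 at 237 and 218 CPM in HEL control and 299 and 287 CPM in DDX6 shRNA libraries (0.36 ± 0.07) and at 231 and 250.3 CPM in MOLM-13 control and 251 and 233 CPM in DDX6 shRNA libraries (0.01 ± 0.07). Both overlapped in MOLM-13. The exons of ADRM1 overlap LAMA5 on the other strand over 11.4% of their length.

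All 8 lid subunits rose in HEL, while in MOLM-13 PSMD3 rose, PSMD13 fell and 6 did not pass. PSMD14, the metalloprotease that removes ubiquitin before degradation, rose from 225 and 217 to 261 and 257 CPM in HEL (0.23 ± 0.06); at 97.2 and 92.6 CPM in MOLM-13 control and 108 and 106 CPM in DDX6 shRNA libraries it did not pass in MOLM-13 (0.17 ± 0.08), although both DDX6 libraries were higher. PSMD3 stood at 207 and 202 CPM in HEL control and 269 and 271 CPM in DDX6 shRNA libraries (0.40 ± 0.06) and at 158 and 175 CPM in MOLM-13 control and 193 and 185 CPM in DDX6 shRNA libraries (0.18 ± 0.07). PSMD13 stood at 119 and 112 CPM in HEL control and 143 and 139 CPM in DDX6 shRNA libraries (0.29 ± 0.07) and at 201 and 210.0 CPM in MOLM-13 control and 191 and 165 CPM in DDX6 shRNA libraries (-0.21 ± 0.07). The groups of PSMD3 and PSMD13 were apart in both lines, those of PSMD13 in opposite directions. PSMD12 stood at 118 and 115 CPM in HEL control and 156 and 153 CPM in DDX6 shRNA libraries (0.40 ± 0.07) and at 106 and 95.8 CPM in MOLM-13 control and 89.2 and 93.6 CPM in DDX6 shRNA libraries (-0.14 ± 0.08). PSMD11 stood at 106 and 103 CPM in HEL control and 135 and 126 CPM in DDX6 shRNA libraries (0.33 ± 0.07) and at 69.4 and 70.8 CPM in MOLM-13 control and 71.7 and 66.1 CPM in DDX6 shRNA libraries (-0.03 ± 0.09). PSMD8 stood at 209 and 201 CPM in HEL control and 269 and 261 CPM in DDX6 shRNA libraries (0.37 ± 0.07) and at 186 and 210.1 CPM in MOLM-13 control and 199 and 187 CPM in DDX6 shRNA libraries (-0.04 ± 0.07). PSMD11 and PSMD8 overlapped in MOLM-13, and both PSMD12 DDX6 libraries lay below the controls there. The remaining lid genes, PSMD6 and PSMD7 (the partner of PSMD14), rose by 0.39 and 0.25 in HEL and were at 0.15 and 0.06 in MOLM-13.

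Of the 5 genes that assemble the core particle, PSMG1 rose in HEL and the others did not pass there, and in MOLM-13 POMP, PSMG1 and PSMG3 fell, with all 5 estimates below 0. POMP, which recruits and matures the beta ring (chr13:28659104-28678925), stood at 123 and 123 CPM in HEL control and 124 and 127 CPM in DDX6 shRNA libraries and did not pass (0.03 ± 0.07). In MOLM-13 it stood at 224 and 237 CPM in MOLM-13 control and 163 and 157 CPM in DDX6 shRNA libraries (-0.53 ± 0.07, edgeR adjusted p = 3.08e-08). The MOLM-13 DDX6 mean was 69.2% of the control mean, with no overlap, and both libraries still stood above every HEL library. PSMG1, which with PSMG2 guides alpha ring formation, stood at 232 and 223 CPM in HEL control and 265 and 248 CPM in DDX6 shRNA libraries (0.17 ± 0.07) and at 71.2 and 67.4 CPM in MOLM-13 control and 61.2 and 56.8 CPM in DDX6 shRNA libraries (-0.23 ± 0.09). PSMG3, which acts in a pair with PSMG4, stood at 33.4 and 33.5 CPM in HEL control and 32 and 30.2 CPM in DDX6 shRNA libraries (-0.11 ± 0.10) and at 58.1 and 65 CPM in MOLM-13 control and 56.6 and 46.7 CPM in DDX6 shRNA libraries (-0.25 ± 0.10). PSMG2 was at -0.16 ± 0.08 and -0.19 ± 0.08 and PSMG4 at -0.17 ± 0.13 and -0.29 ± 0.12, none of them passing. Among the 3 chaperones of the 19S base, PSMD5 rose in HEL (0.40 ± 0.08), and PSMD9 and PSMD10 passed in neither line (0.20 and -0.04 in HEL, 0.22 and -0.05 in MOLM-13).

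Of the activators, PSME4, a large single-chain cap of the nucleus, rose in both lines, from 223 and 210.1 to 302 and 318 CPM in HEL (0.52 ± 0.07, edgeR adjusted p = 2.1e-08), and MOLM-13 went from 83.7 and 75 to 103 and 102 CPM (0.37 ± 0.08, edgeR adjusted p = 0.000293). PSME3, which forms a nuclear cap of its own, stood at 195 and 195 CPM in HEL control and 272 and 274 CPM in DDX6 shRNA libraries (0.48 ± 0.06) and at 185 and 179 CPM in MOLM-13 control and 184 and 186 CPM in DDX6 shRNA libraries (0.03 ± 0.07), apart in HEL and overlapping in MOLM-13. The interferon-inducible pair PSME1 and PSME2, which form 1 mixed ring, differed from each other. PSME1 stood at 112 and 111 CPM in HEL control and 116 and 113 CPM in DDX6 shRNA libraries (0.04 ± 0.07) and at 213 and 232 CPM in MOLM-13 control and 227 and 235 CPM in DDX6 shRNA libraries (0.06 ± 0.07) and passed in neither line. PSME2 stood at 76 and 72.5 CPM in HEL control and 89.5 and 85.9 CPM in DDX6 shRNA libraries (0.24 ± 0.08), a rise, and at 191 and 217 CPM in MOLM-13 control and 202 and 189.9 CPM in DDX6 shRNA libraries (-0.06 ± 0.07), where the groups overlapped. PSMF1, an inhibitor of the core in vitro, stood at 89.5 and 95.4 CPM in HEL control and 87.8 and 91.5 CPM in DDX6 shRNA libraries (-0.04 ± 0.07) and at 122 and 134 CPM in MOLM-13 control and 145 and 141 CPM in DDX6 shRNA libraries (0.16 ± 0.07). Neither value passed, although both MOLM-13 DDX6 libraries of PSMF1 were above the controls.

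The difference between the lines was tested directly, by subtracting the HEL log2 fold change from that of MOLM-13. It was lower for 25 of the 48 members, where 7.59% of all genes were, and higher for none, where 7.53% were; 43 of the 48 estimates were below 0, with a median of -0.30 against -0.03 for all genes. The 10 called in all 14 alternatives run for this comparison were ADRM1 (-0.61 ± 0.11), POMP (-0.57 ± 0.10), PSMD12 (-0.54 ± 0.11), PSMC5 (-0.53 ± 0.10), PSMB8 (-0.51 ± 0.10), PSMD13 (-0.49 ± 0.10), PSME3 (-0.46 ± 0.09), PSMA3 (-0.46 ± 0.10), PSMA4 (-0.41 ± 0.09) and PSMD1 (-0.39 ± 0.09), with edgeR adjusted p from 3.54e-05 (POMP) to 0.00307 (PSMD1). Behind these, POMP fell in MOLM-13 with no call in HEL, whereas the other 9 rose in HEL. All 3 constitutive catalytic subunits were among the 25. Among the inducible ones PSMB8 was, PSMB9 leaned the other way without passing (0.30 ± 0.12, edgeR adjusted p = 0.0738), and PSMB10 did not pass (-0.33 ± 0.16, edgeR adjusted p = 0.155). For PSMD2, PSMD14 and PSME4, which rose in HEL, the difference was -0.07 ± 0.09, -0.06 ± 0.10 and -0.15 ± 0.10, not passing.

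The number of lower differences rested on single libraries. It was 16 without HEL control replicate 1, 11 without HEL control replicate 2, 12 without HEL DDX6 replicate 1, 14 without MOLM-13 DDX6 replicate 1 and 11 without MOLM-13 DDX6 replicate 2. Between 9 and 14 calls were lost in these cases, at edgeR adjusted p from 0.0525 to 0.316, and PSMA5, PSMB1, PSMB4, PSMB6, PSMB7, PSMC3, PSMC4, PSMD11 and PSME2 were lost in each of them. Without HEL DDX6 replicate 2, PSMB5 and PSME2 were lost (0.0623 and 0.0809) and PSMA6 was added. Without MOLM-13 control replicate 2, 9 calls were lost (0.0526 to 0.273) while PSMD6 was added as lower and PSMB9 and PSMF1 as higher. Without MOLM-13 control replicate 1 none was lost, and PSMA1, PSMA7, PSMB2 and PSMD3 were added. With DESeq2, 16 were lower.

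**Figure D3:**
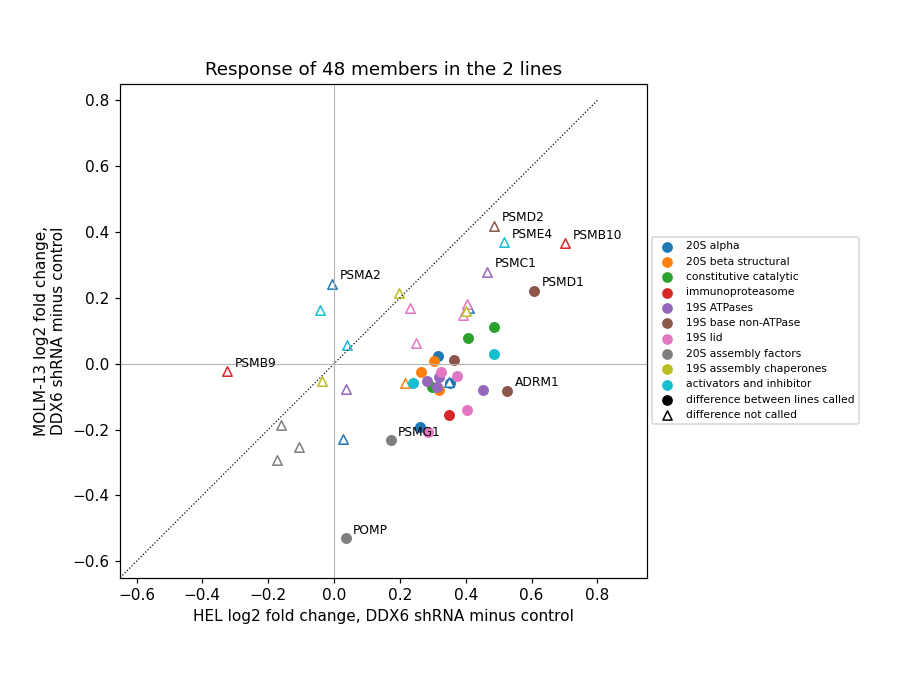
Log2 fold change of each of the 48 members in HEL (x axis) and MOLM-13 (y axis), DDX6 shRNA minus control, coloured by role; filled circles mark the 25 members whose change differed between the lines, and the dotted line marks equal change. Most points lie below that line, with POMP lowest at -0.53 in MOLM-13 and PSMB10 farthest right at 0.70 in HEL.

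The lines also differed in the levels from which these changes started. In the control libraries 23 members were higher in MOLM-13 (40.4% of all genes) and 13 lower (40.8%); 75% of the members were called, against 81.2% of all genes, so the share was near the background. The sample titles and column names give no preparation batch, so the line and any batch of its libraries cannot be told apart. PSMB10 differed most, with a MOLM-13 minus HEL log2 difference of 2.48 ± 0.11, followed among the higher ones by PSME2 (1.46 ± 0.08), PSMG4 (1.07 ± 0.12), PSME1 (0.998 ± 0.07) and POMP (0.91 ± 0.07). The inducible PSMB8 was also higher (0.68 ± 0.07), but PSMB9 was lower (-0.74 ± 0.08). Lower in MOLM-13 were further PSMG1 (-1.71 ± 0.08), PSME4 (-1.45 ± 0.07), PSMD14 (-1.22 ± 0.07), PSMB2 (-1.11 ± 0.07) and PSMA7 (-0.77 ± 0.06). Each of these 12 differences was called in all 13 alternatives run for this comparison.

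Within a line, levels per length spread widely. The median member stood at 75.5 CPM per kb in HEL control and 62.6 in MOLM-13 control. PSMA7 was highest in HEL control, at 438 CPM per kb, and PSMB4 highest in MOLM-13 control, at 287. PSMA2 was lowest in both, at 1.01 and 0.600 CPM per kb. Among the catalytic subunits the order in HEL control was PSMB7 (144 CPM per kb in HEL and 191 in MOLM-13), PSMB9 (139 CPM per kb in HEL and 83.2 in MOLM-13), PSMB8 (129 CPM per kb in HEL and 207 in MOLM-13), PSMB6 (82.1 CPM per kb in HEL and 131 in MOLM-13), PSMB5 (65.3 CPM per kb in HEL and 95 in MOLM-13) and PSMB10 (9.43 CPM per kb in HEL and 52.6 in MOLM-13). PSMB8 headed that order in MOLM-13 control, and PSMB10 was last in both. The 19S ATPases ranged from 9.32 (PSMC1) to 122 (PSMC5) CPM per kb in HEL control, and the assembly chaperones PSMD9 and PSMD5 were among the lowest, at 4.53 CPM per kb in HEL and 7.11 in MOLM-13 and 13.1 CPM per kb in HEL and 12 in MOLM-13. These levels rest on 1 principal transcript per gene. Whether the low level of PSMA2 comes from how shared reads were assigned was not tested.

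**Figure D4:**
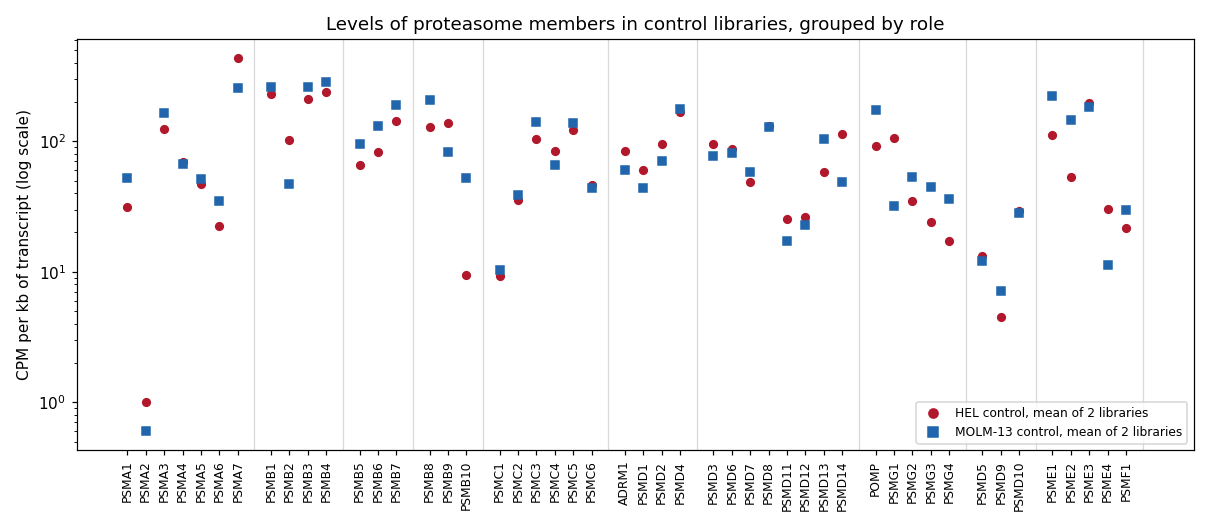
Mean level of each member in the control libraries of each line, in CPM per kb of the principal transcript on a log axis, grouped by role (2 libraries per line). PSMA2 lies far below the rest, at 1.01 and 0.600 CPM per kb, and PSMB10 is 9.43 in HEL and 52.6 in MOLM-13.

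A further list of 41 genes of the pathway that are not in the name series (shuttle factors, bound enzymes, ubiquitin genes, regulators of subunit transcription and peptide loading genes) was read from the same fit. In HEL 13 of the 41 rose and 4 fell (median log2 fold change 0.09), where 20.7% and 14.1% of all genes did, so that 41.5% of the list was called against 34.8% of all genes. In MOLM-13 10 rose and 5 fell (median 0.08), where 18.1% and 14.3% of all genes did, and the 36.6% called was near the 32.4% of all genes. SEM1, a small lid subunit outside the name series, rose in HEL, from 101 and 95.4 to 116 and 111 CPM (0.21 ± 0.07, edgeR adjusted p = 0.0206), and was at 0.05 ± 0.07 in MOLM-13. NFE2L1, the transcription factor that drives subunit genes when the proteasome is impaired, stood at 107 and 105 CPM in HEL control and 114 and 102 CPM in DDX6 shRNA libraries (0.04 ± 0.07) and at 149 and 147 CPM in MOLM-13 control and 133 and 151 CPM in DDX6 shRNA libraries (-0.06 ± 0.08), overlapping in both lines. The NFE2L1 protein, known to be controlled by processing, was not measured. The letters TGACNNNGC, the core of an antioxidant-type element, stood on either strand in 17 of the 52 member windows (32.7%) and in 13.3% of all windows, in 16 members; no binding was measured.

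Of the 41, 8 (19.5%) were called in both lines, 7 of them in 1 direction, near the share of all genes, 15.2% called in both and 13.6% in 1 direction. VCP, the segregase that extracts ubiquitylated proteins, rose by 0.34 and 0.17, the ubiquitin gene UBB by 0.23 and 0.26, and the ligase UBE3C by 0.29 and 0.25. PITHD1 was at -0.20 and -0.32, a fall in each line. ECPAS, an adaptor of the proteasome, fell in HEL from 108 and 107 to 87.3 and 85.1 CPM (-0.31 ± 0.07) and rose in MOLM-13 from 103 and 93.5 to 119.6 and 123 CPM (0.31 ± 0.08), and the difference passed (0.62 ± 0.11, edgeR adjusted p = 2.73e-05). Among regulators of the inducible genes, NLRC5, the class I transactivator, fell in both, from 162 and 177 to 123 and 139.9 CPM (-0.37 ± 0.07) and from 68.3 and 74.2 to 47.7 and 55.3 CPM (-0.47 ± 0.09). TAP1, the peptide transporter gene within the annotated span of PSMB9, stood at 86.7 and 85.7 CPM in HEL control and 82.1 and 73 CPM in DDX6 shRNA libraries (-0.15 ± 0.08, not passing) and rose in MOLM-13 from 44.7 and 43.2 to 55.2 and 52 CPM (0.29 ± 0.10, edgeR adjusted p = 0.0177), with a difference of 0.44 ± 0.12 (edgeR adjusted p = 0.00991). Several of these calls rested on single libraries. In HEL, PITHD1 and SEM1 were lost without any 1 HEL library, and UBE3C and UBB also without control replicate 2 or DDX6 replicate 1 (edgeR adjusted p 0.0528 to 0.283), and SEM1 without either MOLM-13 DDX6 library (0.0671 and 0.0680). In MOLM-13, VCP was lost without either DDX6 library or any 1 HEL library, TAP1 without DDX6 replicate 1, and UBE3C and PITHD1 without DDX6 replicate 2 (0.0552 to 0.472). TAP1 passed as lower in HEL without either MOLM-13 control library (-0.19 in each case). The list then held 6 higher and 2 lower genes in HEL without HEL control replicate 2, 7 higher without HEL DDX6 replicate 1, and in MOLM-13 9 lower without MOLM-13 control replicate 1 and 2 lower without MOLM-13 DDX6 replicate 2.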

How the data were processed

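Gene counts came from 2 deposited tables, 1 per line, of whole-number counts per gene as the authors made them, not normalized. The submitters' processing notes name GRCh38, DESeq2, STAR and SAMtools 1.12 without roles; the counter, annotation and strand setting were not given in the sources used here. Columns were mapped by line, shRNA and replicate number, and 0 columns were left unused.

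All 8 libraries entered 1 model with a mean per group (4 residual degrees of freedom, median prior degrees of freedom 40.0). After filterByExpr (minimum count 10), 16499 genes were scaled by TMM and tested with edgeR 4.0.16 (glmQLFit, glmQLFTest; R 4.3.3), with Benjamini-Hochberg adjustment over all of them and a threshold of 0.05. The SE is the log2 fold change divided by the square root of F. The code was checked on simulated counts. Lengths, exon overlaps and coordinates come from GENCODE 29 (GRCh38) and promoters from RefSeq (GRCh38.p14); the promoter table matched 42 of the 48 members, all but PSMA7, PSMB1, PSMB6, PSMB7, PSMD4 and PSMG3. Processed pseudogenes of the family (42 entries) held 0.0968% to 0.220% of the member counts. Replicates were never identical (chi-square per degree of freedom 1.41 to 3.37).

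Values are given in every library for the catalytic subunits, the activators, PSMF1, POMP, ADRM1, PSMD14, members whose change differed between lines and, per line and direction, up to 6 called members with the largest change. Of the other 41 pathway genes, those called in both lines and NFE2L1, TAP1 and SEM1 are named, except that some genes of this list are not reported here. The members and lists were chosen with earlier results of these data known. Alternatives were RLE and upper-quartile scaling, no filter, DESeq2 1.42.0, each line alone, a replicate block, removal of a GC trend, other forms of the catalytic ratio and leaving out each library.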

Additional observations from a re-analysis of the deposited data

Results flagged for a closer look

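For 25 members the change under DDX6 shRNA differed between the lines, when the HEL log2 fold change was subtracted from that of MOLM-13 and tested with edgeR's quasi-likelihood test. All 25 values were below 0, each on the log2 scale. In the core these were PSMA3 (-0.46), PSMA4 (-0.41), PSMA5 (-0.29), PSMB1 (-0.30), PSMB3 (-0.40), PSMB4 (-0.29), PSMB5 (-0.33), PSMB6 (-0.38), PSMB7 (-0.37) and PSMB8 (-0.51). In the base they were PSMC2 (-0.38), PSMC3 (-0.34), PSMC4 (-0.36), PSMC5 (-0.53), PSMD1 (-0.39), PSMD4 (-0.35) and ADRM1 (-0.61), and in the lid PSMD8 (-0.41), PSMD11 (-0.35), PSMD12 (-0.54) and PSMD13 (-0.49). The others were the activators PSME2 (-0.30) and PSME3 (-0.46) and the assembly factors PSMG1 (-0.40) and POMP (-0.57). For ADRM1, POMP, PSMA3, PSMA4, PSMB8, PSMC5, PSMD1, PSMD12, PSMD13 and PSME3 the call was kept in all 14 alternatives. Each library was left out in turn, as given above, but 2 libraries per group cannot show which of them is outlying.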

How the results depend on the processing

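Of 3062 values of single genes under the alternatives, 2687 stayed on the same side of the threshold, 241 lost and 52 gained a call, 76 changed sign with no call in either setting and 6 changed sign with a call in the alternative setting. In MOLM-13 higher members numbered 7 as reported, 4 with no filter and 3 with the line alone; lower members numbered 6 as reported, 2 with no filter, 1 with DESeq2 and 1 with the line alone. Lower differences between lines numbered 25 as reported and 16 with DESeq2, and higher ones 0 as reported and 1 with a GC trend removed. In HEL 2 members were lower with the line alone and 2 with a GC trend removed. Of the pathway list, 7 were lower in HEL and 6 higher in MOLM-13 with each line alone, and 8 lower in MOLM-13 with a GC trend removed. Leaving out 1 library at a time gave 27 to 36 higher and 1 to 2 lower in HEL, 4 to 7 and 1 to 8 in MOLM-13, 0 to 2 and 11 to 29 for the difference, and 20 to 24 and 12 to 15 for the lines; for the pathway list it gave 6 to 14 and 2 to 6 in HEL and 7 to 14 and 2 to 9 in MOLM-13. The log2 ratio of inducible to constitutive subunits differed by -0.352 to -0.268 in HEL and by -0.114 to -0.00317 in MOLM-13 when a library was left out. In HEL it was -0.245 with no length correction, -0.153 as a mean of pair ratios and -0.229 with merged exon lengths, the last chosen after seeing the data; in MOLM-13 the mean of pair ratios turned to 0.0202. In the control libraries, removing a GC trend turned PSMA4 (0.32), PSMC6 (0.51), PSMD5 (0.29), PSMD6 (0.50), PSMD10 (0.34) and PSMD12 (0.41) to higher in MOLM-13, and upper-quartile scaling moved the median of all genes by 0.12. Of the genes so turned, only PSMD12 had been called lower in the reported fit (-0.21), and the others had not been called. The cause of these shifts was not tested. Over all genes, the share of called differences between lines that were higher was 49.8% as reported, 42.0% with a GC trend removed, 56.7% with DESeq2 and 49.8% to 63.7% when a library was left out, highest without MOLM-13 DDX6 replicate 1.

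The deviations of same-numbered libraries correlated across genes at 0.05 in HEL and -0.04 in MOLM-13 (2 pairs each). With so few pairs this cannot show whether same-numbered libraries were prepared together. With a replicate block within each line, 35 members were higher and 1 lower in HEL, 5 higher and 3 lower in MOLM-13, and 22 differences were lower. A line alone gives no difference between lines, and the block and the line alone give no value for the control libraries. Low counts limit the tests of PSMA2, which held 0.882 to 1.81 CPM in every library. The part of library depth and of read assignment in these low counts was not tested.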
